A study of Mus musculus with 9 samples.

Results

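ICAT expressing cells were compared with control cells of the same mouse pancreatic cancer line on 6 of the 9 arrays of the series, 3 per group. The arrays were taken by their transfection label, and each gene was represented by the brightest probe set assigned to it alone. Of 18193 genes with such a probe set, 15235 reached a log2 expression of 5 on at least 3 of the 9 arrays and were tested. A gene under 5 in the other groups could thus enter the test through its ICAT arrays alone. All cells were line 170#3, of a mixed C57BL6 x FVB x 129Sv background, grown as a monolayer in DMEM with fetal bovine serum. The groups differed by stable transfection with a control, with ICAT or, in the remaining 3 arrays, with beta-catenin. The labels name no vector, promoter or clone. Replicates are labelled as independent or biological, but whether they came from separate transfections is not stated, so the p-values cover only the scatter of these samples, which may be technical.

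ICAT, encoded by Ctnnbip1, is a short inhibitor that occupies the surface of beta-catenin needed by TCF/LEF transcription factors. Beta-catenin has a second role at the cell membrane, where it joins cadherins to the actin cytoskeleton. In the pancreas the Wnt pathway takes part in organ growth, in acinar cell renewal and in tumour formation. The profile below describes which transcripts differed in cells labelled as ICAT expressing. Whether access of beta-catenin to TCF was limited in these cells was not tested.

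Among the tested genes, 5079 were called (33.3%) by limma's moderated, two-sided test at a Benjamini-Hochberg adjusted p under 0.05. Of these, 2593 were higher in ICAT cells (17.0%) and 2486 lower (16.3%). Large changes were mostly increases: 379 genes were called at least 2-fold higher (2.49%) and 69 at least 2-fold lower (0.453%). The split depended on scaling, and 2119 genes were called higher and 3381 lower after each array was centred on its median. That centring moved the median difference of all genes from -0.01 to -0.08. The arrays of the groups did not overlap, in either direction, for 7043 genes (46.2%). The count of genes called lower ranged from 1647 without control replicate 3 to 3185 without ICAT replicate 3. In what follows, values are log2 expression, a difference is ICAT minus control, adjusted p-values are from limma, and "at least" marks a fold for which values under 5, in a group with a mean under 5, were set to 5. Of the 198 genes chosen by rule for description, 184 were called. Of those, 108 had another probe set. It was called in the same direction for 79 and in the opposite direction for 0. For the rest, Mgst1, Ptx3, Aldoc and Epas1 among them, no other probe set was called.

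**Figure D1:**
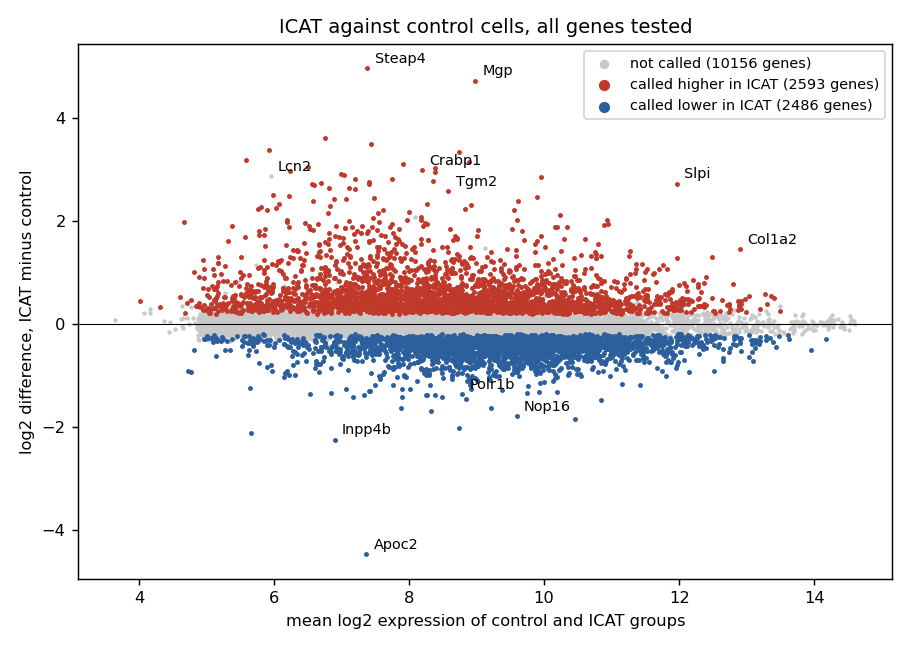
Each point is 1 of the 15235 tested genes, with the mean log2 expression of both groups on the horizontal axis and the log2 difference, ICAT minus control, on the vertical axis. Red points are the 2593 genes called higher and blue points the 2486 called lower; of the called genes 379 lie at least 2-fold up and 69 at least 2-fold down, with Steap4 and Mgp at the top and Apoc2 at the bottom.

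The ICAT arrays varied more than the control arrays. The median SD per gene over 3 arrays was 0.121 in ICAT and 0.0568 in control cells, and the ICAT SD was the larger one for 78.2% of genes. An SD of at least 0.5 was reached by 145 genes in ICAT cells and by 2 in control cells. On ICAT replicate 1, 54 genes lay at least 1 log2 unit above both other ICAT arrays and 19 below, against 0 genes on ICAT replicates 2 and 3. Over all genes, however, limma's array weights were lowest for ICAT replicate 3 (0.237, beside 0.604 for replicate 1 and 0.886 for replicate 2), and 5940 genes were called without replicate 3 and 4905 without replicate 1. Pearson correlations over all probe sets were 0.9941 to 0.9959 among ICAT arrays and 0.9976 to 0.9982 among control arrays. For genes chosen by rule, a call or sign that changed without ICAT replicate 1 is stated, or the range is given. Other folds include that array, and some were smaller without it.

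The label of a pancreatic cancer line was compared with cell type markers. Vim, the mesenchymal intermediate filament gene, lay at 14.27, 14.22 and 14.28 on the control arrays and 14.09, 14.22 and 14.17 on the ICAT arrays. Cdh1, the epithelial cadherin gene, stayed under the filter with 3.54, 3.42 and 3.48 on the control and 3.39, 3.49 and 3.55 on the ICAT arrays. Epcam was measured at 7.34, 7.53 and 7.56 on the control and 7.53, 7.65 and 7.39 on the ICAT arrays, and the ductal keratin gene Krt19 lay at 5.24, 5.37 and 5.22 on the control and 5.40, 5.60 and 5.66 on the ICAT arrays. Col1a2, a collagen gene of mesenchymal cells, was already at 12.14, 12.19 and 12.20 in control cells. Mesenchymal markers were thus over the filter in both groups. So were Epcam, Krt19, Krt8, Krt18 and Sox9 of the 6 duct and epithelium markers, and Cdh1 was under it. Of the leukocyte markers in this check, Ptprc and Itgam had means under the filter, while Cd14, Csf1r, Cd3e, Adgre1 and Tyrobp had control means of 8.28, 7.25, 7.07, 5.86 and 5.25. Of the endothelial markers, Cdh5, Tek and Vwf had means under it, while Kdr and Pecam1 had control means of 7.41 and 5.19. Of 25 tested leukocyte markers, 0 were called by limma in either direction, with 1 at an unadjusted p under 0.05.

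The transcript of the transfected gene itself was not called. Ctnnbip1 lay at 8.64, 8.62 and 8.67 on the control arrays and 8.76, 8.65 and 8.95 on the ICAT arrays, and the ranges overlapped (log2 difference 0.14, SE 0.086, adjusted p = 0.256). Whether the probe set covers a transfected coding sequence is not given in the sources used here, so this is no measure of ICAT protein. Ctnnb1, which encodes beta-catenin, lay at 12.69, 12.67 and 12.70 on the control arrays and 12.995, 12.86 and 12.78 on the ICAT arrays. All 3 ICAT arrays were above the control arrays, but the gene was not called (log2 difference 0.19, SE 0.0755, adjusted p = 0.0789). It was called without ICAT replicate 3, with a difference of 0.24 (adjusted p = 0.0213). With p-values adjusted over all probe sets, the Ctnnb1 probe set used here was again not called (adjusted p = 0.122). A dimmer Ctnnb1 probe set, with a control mean of 10.68, was called higher (log2 difference 0.25, adjusted p = 0.0347). The dimmest, with a control mean of 8.13, was not called (log2 difference 0.17, adjusted p = 0.369).

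Feedback and target genes of Wnt signalling held calls in both directions in ICAT cells. Of 35 tested members, 4 were called higher and 3 lower, beside 17.0% and 16.3% of all genes, with a median difference of 0.04 against -0.01. The 4 became 2 without control replicate 2 or 3 and 7 without ICAT replicate 3. Axin2, a negative feedback gene of the pathway, lay at 6.37, 6.32 and 6.36 on the control arrays and 6.42, 6.48 and 6.22 on the ICAT arrays and did not pass (adjusted p = 0.86). Its sign turned to below control with array centring and without ICAT replicate 2. Lef1, a TCF family transcription factor gene, lay at 6.61, 6.45 and 6.51 on the control arrays and 6.50, 6.41 and 6.20 on the ICAT arrays and did not pass either (adjusted p = 0.261). Neither the cell cycle gene Ccnd1 (adjusted p = 0.651) nor Myc (adjusted p = 0.244) passed. Ccnd1 was at 12.62, 12.66 and 12.61 on the control arrays and 12.46, 12.63 and 12.64 on the ICAT arrays, and Myc at 11.05, 11.004 and 11.12 on the control arrays and 11.24, 11.11 and 11.19 on the ICAT arrays, with overlapping groups for both.

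A few members of the Wnt lists did change. Fst, which encodes the activin antagonist follistatin, was measured at 11.62, 11.52 and 11.61 on the control arrays and 10.07, 10.14 and 10.13 on the ICAT arrays. It fell 2.77-fold with tight replicates (log2 difference -1.47, SE 0.0686, adjusted p = 2.36e-06). Apcdd1, a membrane inhibitor of Wnt signalling, went from 9.13, 8.98 and 8.72 to 7.52, 7.42 and 7.76 and fell 2.6-fold (log2 difference -1.38, SE 0.121, adjusted p = 5.26e-05). Porcn, which encodes the acyltransferase that lipidates Wnt ligands, rose 1.64-fold from 5.37, 5.58 and 5.53 to 6.24, 6.24 and 6.14 (adjusted p = 1.84e-04). Sfrp2, a secreted Wnt antagonist gene, rose at least 1.49-fold (adjusted p = 0.0262), a call lost without control replicate 2 (adjusted p = 0.0622) or 3 (adjusted p = 0.0718).

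Among Wnt ligands, receptors and antagonists, 13 of 44 tested members were called higher and 1 lower, a larger share than the 17.0% of all genes. The receptor gene Fzd6 lay at 7.20, 7.19 and 7.48 on the control arrays and 8.35, 8.58 and 8.76 on the ICAT arrays and rose 2.42-fold (log2 difference 1.27, SE 0.118, adjusted p = 7.40e-05). Another receptor gene, Fzd1, rose 1.97-fold, from 8.14, 8.21 and 8.20 to 9.36, 8.97 and 9.17 (adjusted p = 1.17e-04), and the pseudokinase receptor gene Ptk7 rose 1.52-fold (adjusted p = 0.00103). For beta-catenin partners and destruction complex genes, 5 of 35 tested members were called higher and 5 lower (14.3% each), beside 17.0% and 16.3% of all genes. Cdh2, the N-cadherin gene, was at 10.31, 10.44 and 10.34 on the control arrays and 9.74, 9.65 and 9.59 on the ICAT arrays and fell 1.63-fold (log2 difference -0.70, SE 0.0745, adjusted p = 1.46e-04). Genes of the Groucho (TLE) family divided, with Tle1 1.62-fold lower and Tle2 1.71-fold and Tle5 1.44-fold higher.

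The plain letters CTTTGAT of a TCF site, searched on both strands, were found in the promoter windows of 3 of 20 Wnt feedback and target genes with a window (15%) and of 3.41% of all 12185 genes with one. A window ran from 250 bases before to 50 bases after a RefSeq transcription start on GRCm38.p6.

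A broad increase in ICAT cells was in interferon-stimulated genes, which cells switch on through STAT and IRF factors after interferon or nucleic acid sensing. Of 41 tested effector genes, 33 were called higher and 0 lower, with a median difference of 0.78. All 9 of 9 tested interferon-inducible GTPase genes were called higher, with a median of 1.90. STAT and IRF factors act in part through the interferon-stimulated response element, searched here as GAAA, any 2 bases and GAAA on both strands. It was found in the windows of 433 of 12185 tested genes with one (3.55%), of 11 of 33 effector genes (33.3%) and of 6 of 7 GTPase genes (85.7%). The following stretches, shown because they hold these letters in genes that rose, read 5′ to 3′ on the gene's strand, with matches on either strand in capitals (TTTC, 2 bases and TTTC is the same element read on the other strand) and positions on GRCm38.p6, from RefSeq.
Ifit1 (chr19:34640764-34640833, plus strand): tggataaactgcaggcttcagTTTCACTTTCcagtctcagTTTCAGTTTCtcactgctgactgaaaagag
Ifit3 (chr19:34583360-34583429, plus strand): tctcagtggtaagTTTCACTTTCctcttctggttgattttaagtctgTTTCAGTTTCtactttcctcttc
Gbp2 (chr3:142620574-142620643, plus strand): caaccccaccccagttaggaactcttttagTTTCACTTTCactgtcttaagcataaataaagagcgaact
Gbp3 (chr3:142559972-142560041, plus strand): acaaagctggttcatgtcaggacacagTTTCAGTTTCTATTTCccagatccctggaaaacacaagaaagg
Irgm2 (chr11:58214883-58214952, plus strand): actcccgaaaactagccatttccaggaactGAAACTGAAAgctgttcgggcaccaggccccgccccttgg
Cxcl10 (chr5:92349063-92349132, minus strand): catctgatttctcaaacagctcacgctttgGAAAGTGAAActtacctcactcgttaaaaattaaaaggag

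The stretches of Ifit1 and Ifit3 each hold 2 separate matches, and that of Gbp3 holds 2 overlapping ones. The matches in Gbp2 and Irgm2 begin at positions -59 and -64 from the start, and that in Cxcl10 at -213. A match is a description of the letters and shows no binding. Ifit3 was added for its sequence after values were seen.

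Ifit1, an RNA-binding antiviral effector gene whose stretch is given first, lay at 6.36, 6.42 and 6.26 on the control arrays and 9.92, 8.67 and 8.88 on the ICAT arrays. It rose 6.99-fold (log2 difference 2.81, SE 0.265, adjusted p = 8.18e-05), and all ICAT arrays were above all control arrays. Ifit3 went from 6.29, 6.70 and 6.56 to 9.04, 8.03 and 8.12 (adjusted p = 3.41e-04). Usp18, whose product removes ISG15 from proteins and dampens interferon signalling, lay at 5.05, 4.80 and 5.09 on the control arrays and 9.15, 7.38 and 7.54 on the ICAT arrays and rose at least 7.89-fold (adjusted p = 3.44e-04). Rtp4 was at 6.92, 6.98 and 6.71 on the control arrays and 10.79, 9.35 and 9.53 on the ICAT arrays and rose 8.13-fold, and Xaf1, a pro-apoptotic interferon-induced gene, was at 6.93, 6.87 and 6.96 on the control arrays and 10.78, 9.37 and 9.43 on the ICAT arrays and rose 7.66-fold. In each of these the first ICAT array was the highest one.

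Guanylate-binding proteins and immunity-related GTPases attack vacuoles that hold pathogens. Gbp3 lay at 5.19, 5.42 and 5.38 on the control arrays and 9.34, 7.48 and 7.40 on the ICAT arrays and rose 6.68-fold (log2 difference 2.74, SE 0.425, adjusted p = 0.00107); without ICAT replicate 1 the increase was 4.31-fold. Gbp7 rose 5.41-fold, from 6.28, 6.52 and 5.999 to 9.30, 8.41 and 8.40, Irgm2 5.37-fold, from 5.61, 5.98 and 5.42 to 8.92, 7.66 and 7.71, and Gbp2 4.65-fold, from 6.45, 6.47 and 6.60 to 9.71, 8.29 and 8.17. All 9 GTPase genes had their highest ICAT value on replicate 1, and so did 35 of 41 effector genes. The mean difference from control over the list was 2.56, 1.46 and 1.46 on ICAT replicates 1, 2 and 3 for the GTPases, and 1.53, 0.97 and 0.95 for the effectors. Every ICAT array thus carried the increase, and replicate 1 the most of it. Members of the Gbp and Ifit families are close in sequence, and their probe sets may share signal, which was not tested.

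Sensors and signalling genes of the interferon pathway moved less. In that list 16 of 31 tested members were called higher and 1 lower, with a median of 0.31. Ifih1, the cytosolic RNA sensor gene MDA5, lay at 5.63, 5.55 and 5.88 on the control arrays and 7.96, 7.30 and 7.63 on the ICAT arrays and rose 3.85-fold (log2 difference 1.95, SE 0.155, adjusted p = 3.15e-05). Irf9, a subunit of the ISGF3 factor, rose 3.75-fold, from 6.37, 6.13 and 6.54 to 8.72, 7.998 and 8.03 (adjusted p = 9.37e-05). Irf7, which amplifies type I interferon production, rose 1.76-fold, from 6.05, 5.93 and 5.85 to 7.07, 6.39 and 6.83 (adjusted p = 0.00281). Dhx58, a relative of the RNA sensors, rose 2.37-fold (adjusted p = 0.00102), and the cytokine feedback gene Socs3 2.5-fold (adjusted p = 0.00893). The log2 difference of Socs3 ranged from 0.917 to 1.695 with 1 array left out.

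Antigen presentation genes rose with them: for MHC class I and the immunoproteasome, 10 of 15 tested members were called higher and 0 lower. Psmb8, a catalytic subunit of the immunoproteasome, lay at 6.75, 6.37 and 6.56 on the control arrays and 8.92, 8.21 and 8.48 on the ICAT arrays and rose 3.93-fold (log2 difference 1.98, SE 0.167, adjusted p = 4.35e-05). Tapbp, which loads peptides on MHC class I, rose 2.27-fold from 9.44, 9.52 and 9.43 to 10.88, 10.59 and 10.46. The peptide transporter gene Tap2 rose 1.76-fold and Psmb9 1.62-fold. Ripk3, the kinase of necroptosis, stood outside these lists and rose 7.38-fold, from 5.82, 5.15 and 5.79 to 8.41, 8.47 and 8.54, with 3 ICAT arrays close together (log2 difference 2.88, SE 0.159, adjusted p = 5.26e-06).

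**Figure D2:**
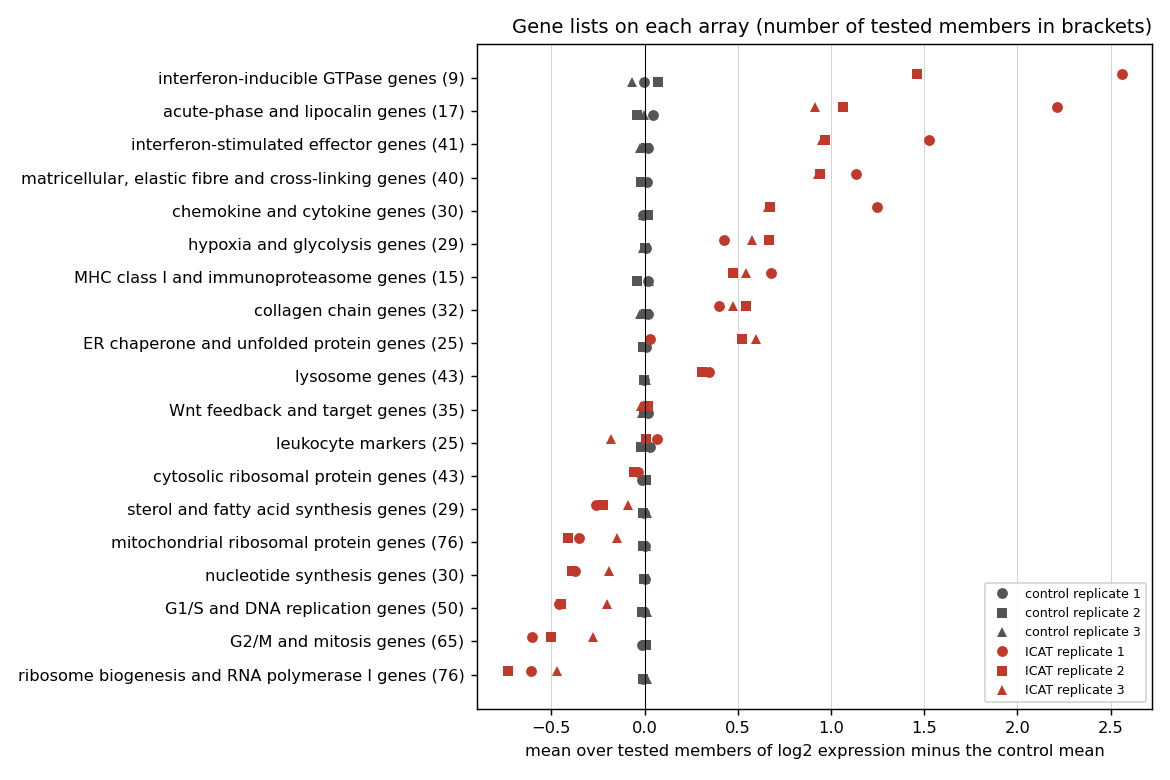
Each row is a gene list with its number of tested members in brackets, and each symbol is 1 array: the mean over members of log2 expression minus the gene's control mean, control arrays in grey and ICAT arrays in red. ICAT replicate 1 (circles) is the farthest right for interferon, acute-phase and chemokine genes, lies at 0.03 for ER chaperone genes where the other ICAT arrays are at 0.52 and 0.60, and all 3 ICAT arrays lie left of 0 for ribosome biogenesis and cell cycle genes.

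In the lists below and above, a count of 0 in one direction is by limma's adjusted test. At an unadjusted p under 0.05, 0 members lay in that direction for interferon effectors, GTPases, MHC class I, acute-phase, ER chaperone (all lower), G1/S and G2/M genes (both higher). It was 1 for NF-kB, collagen, matricellular and pancreatic differentiation genes (all lower). No second test was run on these counts. Every list count of ICAT against control is to be read beside 17.0% called higher and 16.3% called lower among all genes.

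The effector list was also compared between ICAT and beta-catenin cells. On the beta-catenin arrays its mean difference from control was 0.41, 0.52 and 0.43, under every ICAT array. For the GTPases it was 1.17, 1.47 and 1.35, and beta-catenin replicate 2 lay above ICAT replicates 2 and 3. Over the 15235 genes, limma called 2316 higher (15.2%) and 2976 lower (19.5%) in ICAT than in beta-catenin cells. Of the 41 effector genes 25 were higher in ICAT cells and 0 lower, and of the 9 GTPases 4 were higher. Gbp2 lay at 9.02, 9.33 and 9.08 in beta-catenin cells and was not called between the lines (adjusted p = 0.39). Ifit1 lay at 7.36, 7.76 and 7.67 in beta-catenin cells and was 2.95-fold higher in ICAT cells (adjusted p = 0.00187). Usp18 lay at 5.93, 6.33 and 6.13 and was 3.72-fold higher in ICAT cells (adjusted p = 0.00396). Some other lists also lay above control on the beta-catenin arrays. Their mean differences there were 0.41, 0.43 and 0.39 for MHC class I genes, 0.66, 0.79 and 0.60 for acute-phase genes and 0.16, 0.28 and 0.32 for NF-kB genes. For chemokine and cytokine genes they were 0.33, 0.43 and 0.44. Hypoxia and glycolysis genes lay below control, at -0.29, -0.27 and -0.25.

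Chemokine, acute-phase and complement genes included many increases, several of them uneven between ICAT arrays. Among chemokines and cytokines, 19 of 30 tested members were called higher and 1 lower (median difference 0.75). Cxcl10, the interferon-induced T cell chemokine gene whose stretch is printed above, was even across arrays at 6.98, 6.87 and 7.04 on the control arrays and 9.04, 8.85 and 9.04 on the ICAT arrays and rose 4.03-fold (log2 difference 2.01, SE 0.0812, adjusted p = 1.03e-06). Il6, an inflammatory cytokine gene, was uneven at 4.68, 4.71 and 4.60 on the control arrays and 8.65, 5.97 and 6.20 on the ICAT arrays. It rose at least 3.84-fold (adjusted p = 0.013), and at least 2.12-fold without ICAT replicate 1. Il33 rose at least 1.58-fold and Cxcl2 at least 3.22-fold, both from a control mean under the filter. For NF-kB pathway and feedback genes, 10 of 20 tested members were called higher and 0 lower, led by Bcl3 (2.12-fold), Traf1 (2.05-fold) and Birc3 (1.84-fold).

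In the list of acute-phase and lipocalin genes, 9 of 17 tested members were called higher and 0 lower (median 1.06). Steap4, a metalloreductase gene induced by inflammation, showed the largest increase of the genes tested with all arrays in the fit, and lay at 4.91, 4.82 and 4.99 on the control arrays and 11.24, 9.39 and 8.96 on the ICAT arrays. Its rise was at least 29.1-fold (log2 difference 4.95, SE 0.465, adjusted p = 8.06e-05), and at least 18.1-fold without ICAT replicate 1, where its difference of 4.27 was smaller than the 4.35 of Mgp, a matrix gene described below. A second Steap4 probe set was called with a smaller difference of 0.84. Ptx3, a soluble pattern recognition receptor gene, was at 7.04, 7.06 and 7.12 on the control arrays and 11.13, 9.99 and 10.13 on the ICAT arrays and rose 10.1-fold. Slpi, a secreted protease inhibitor gene, was at 10.64, 10.57 and 10.61 on the control arrays and 14.05, 13.08 and 12.86 on the ICAT arrays and rose 6.6-fold. Cp, the copper carrier ceruloplasmin, rose 4.04-fold. Among complement genes, 6 of 19 tested members were called higher (31.6%) and 1 lower (5.26%), beside 17.0% and 16.3% of all genes. The increases included both C1 proteases. C1s1 went from 5.47, 6.04 and 5.56 to 10.16, 8.84 and 8.52 (11.2-fold). C1ra went from 6.01, 5.09 and 5.53 to 9.42, 7.97 and 7.95 (7.47-fold). Clu, the secreted chaperone clusterin, rose 3.69-fold.

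Of the 10 genes with the largest SD over the ICAT arrays, Lcn2, Saa3, Cxcl5, Il6 and Hp encode secreted inflammatory proteins, and each was highest on replicate 1. Lcn2, the siderophore-binding lipocalin, lay at 4.47, 4.64 and 4.44 on the control arrays and 11.36, 5.75 and 5.03 on the ICAT arrays. It was not called (adjusted p = 0.135), but was called without ICAT replicate 1, where it was at least 1.31-fold above control (adjusted p = 0.00599). Saa3, a serum amyloid gene, lay at 7.16, 6.86 and 7.12 on the control arrays and 12.11, 7.66 and 7.60 on the ICAT arrays and was not called (adjusted p = 0.148); without that array it was 1.5-fold higher and called (adjusted p = 0.00258). Cxcl5, a neutrophil chemokine gene, lay at 8.43, 8.39 and 8.33 on the control arrays and 11.91, 8.91 and 8.76 on the ICAT arrays (adjusted p = 0.132) and without that array was 1.37-fold higher and called (adjusted p = 0.00266). For these genes the group mean therefore stood for no array: 1 ICAT array was several log2 units up and the others were slightly above control.

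Hp, the haemoglobin carrier haptoglobin, lay at 6.55, 6.49 and 6.53 on the control arrays and 8.82, 6.64 and 6.57 on the ICAT arrays and Rasl11a, a small GTPase gene, at 6.90, 6.70 and 6.82 on the control arrays and 9.14, 6.67 and 6.92 on the ICAT arrays. Neither was called (0.251 and 0.318 as adjusted p), and without ICAT replicate 1 their differences were 0.08 and -0.02. A pair of genes went the other way. Car6, a secreted carbonic anhydrase gene, lay at 5.04, 4.87 and 4.72 on the control arrays and 4.90, 7.28 and 7.86 on the ICAT arrays: replicate 1 was at the control level and the others were high. It was called (adjusted p = 0.0454), and the call was lost on leaving out any array other than ICAT replicate 1 (adjusted p from 0.0876 to 0.179). Macc1 lay at 5.16, 5.08 and 5.24 on the control arrays and 4.80, 6.77 and 7.34 on the ICAT arrays and was not called (adjusted p = 0.123); without ICAT replicate 1 it was called (3.71-fold higher, adjusted p = 3.87e-05).

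**Figure D3:**
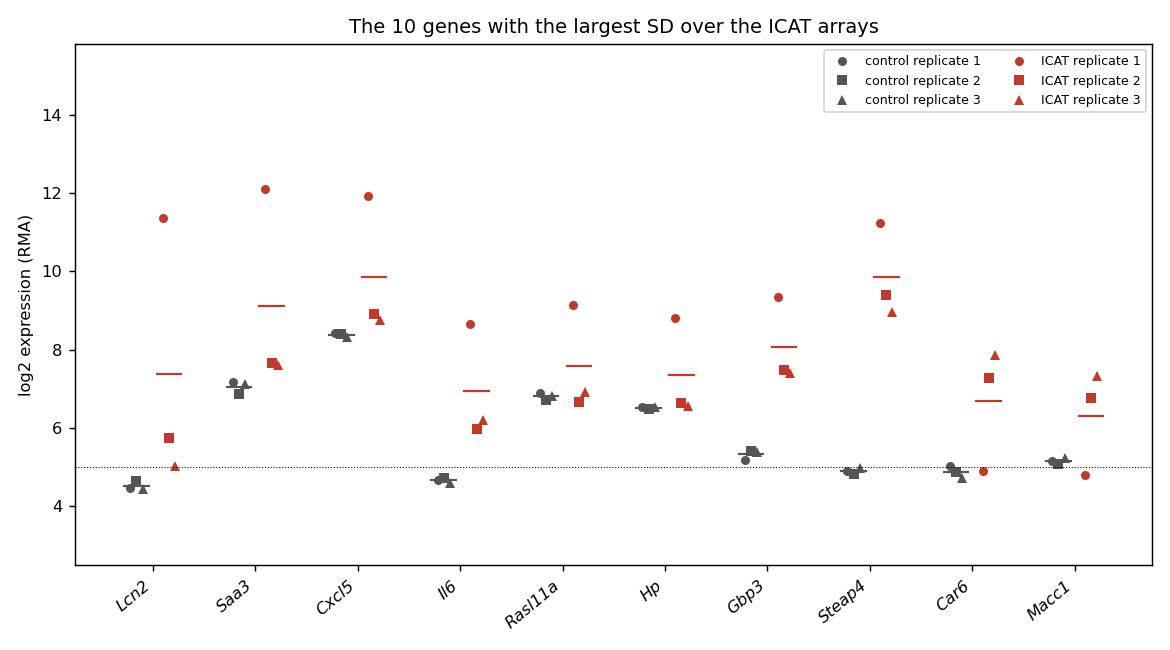
Log2 expression on each array of the 10 tested genes with the largest SD over the ICAT arrays; control arrays are grey, ICAT arrays red, horizontal bars are group means and the dotted line is the filter of 5. ICAT replicate 1 (red circles) is the highest array for 8 of the genes, and the lowest ICAT array for Car6 and Macc1.

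Other increases were even across the ICAT arrays, with an SD of at most 0.15 in both groups. Crabp1, a retinoic acid carrier gene, was measured at 6.63, 6.80 and 6.70 on the control arrays and 9.58, 9.85 and 9.62 on the ICAT arrays. It rose 7.87-fold (log2 difference 2.98, SE 0.0907, adjusted p = 3.98e-07), with no ICAT array under 9.58. Tgm2, which encodes a protein cross-linking transglutaminase, went from 7.16, 7.36 and 7.38 to 9.79, 9.91 and 9.90 and rose 5.93-fold (adjusted p = 4.80e-07). Txnip, the thioredoxin inhibitor gene that follows glucose supply, went from 8.61, 8.58 and 8.62 to 10.55, 10.45 and 10.35 and rose 3.59-fold (adjusted p = 1.03e-06). Epas1, which encodes the hypoxia factor HIF-2alpha, went from 8.78, 8.71 and 8.82 to 10.59, 10.68 and 10.45 and rose 3.48-fold (adjusted p = 1.67e-06). Bnc1, a zinc finger factor gene of epithelia and germ cells, went from 6.55, 6.30 and 6.37 to 8.17, 8.07 and 8.25 (3.39-fold), and Maged2, of the MAGE family, from 6.91, 6.76 and 6.66 to 8.81, 8.67 and 8.69 (3.85-fold).

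Several of these increases separated ICAT cells from beta-catenin cells as well. Crabp1 lay at 6.38, 6.64 and 6.57 in beta-catenin cells, 8.92-fold under ICAT cells (adjusted p = 9.59e-08). Epas1 was 7.69-fold higher in ICAT cells (adjusted p = 9.59e-08), Tgm2 8.47-fold (adjusted p = 9.59e-08) and Txnip 4.73-fold (adjusted p = 1.44e-07). Bnc1 was under the filter in beta-catenin cells, at 4.77, 4.99 and 4.45, and at least 8.96-fold higher in ICAT cells. So was Medag, an adipogenesis gene, at 4.68, 4.96 and 4.53. It lay at 4.91, 4.48 and 4.87 on the control arrays and 7.55, 7.79 and 7.83 on the ICAT arrays. It was at least 6.6-fold higher in ICAT than in beta-catenin cells (adjusted p = 3.22e-07). Medag passed the filter only through its ICAT arrays, so its p-value is no independent support for the difference. Maged2 differed from these genes: it lay at 9.10, 9.11 and 8.91 in beta-catenin cells, 1.25-fold above ICAT cells (adjusted p = 0.0155).

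**Figure D4:**
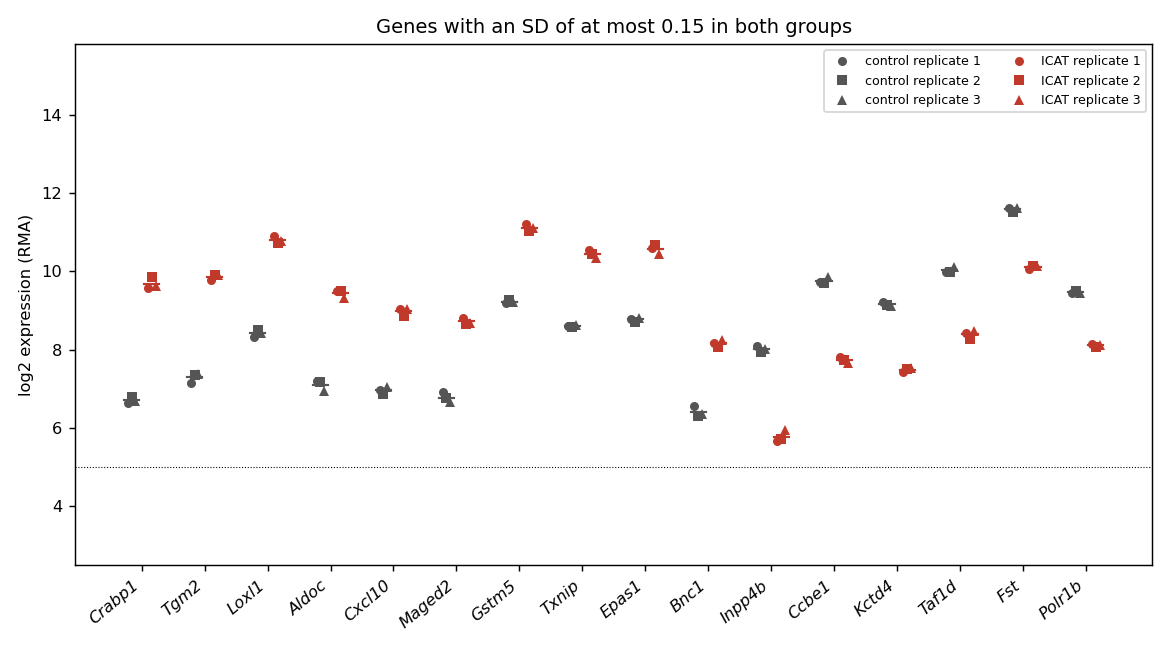
Log2 expression on each array of 16 called genes with an SD of at most 0.15 in both groups; control arrays are grey, ICAT arrays red, horizontal bars are group means and the dotted line is the filter of 5. The 3 arrays of a group nearly coincide; the first 10 genes are higher in ICAT cells and the last 6 are lower.

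The largest decrease was in Apoc2, which encodes the apolipoprotein that activates lipoprotein lipase. It lay at 9.54, 9.63 and 9.63 on the control arrays and 5.25, 5.18 and 4.96 on the ICAT arrays and fell 22.1-fold (log2 difference -4.47, SE 0.0887, adjusted p = 2.21e-08). Inpp4b, a phosphoinositide phosphatase gene that restrains PI3K signalling, went from 8.10, 7.95 and 8.01 to 5.67, 5.73 and 5.94 and fell 4.72-fold (adjusted p = 1.03e-06). Ccbe1, a secreted gene of lymphatic growth, went from 9.72, 9.70 and 9.84 to 7.80, 7.74 and 7.66 (4.06-fold), and the lysosomal protease gene Ctsh from 8.07, 7.93 and 8.07 to 6.77, 6.65 and 6.53 (2.59-fold). The organic anion transporter gene Slco4a1 fell 3.57-fold, from 11.35, 11.40 and 11.35 to 9.22, 9.64 and 9.74. Further decreases were the phosphatase gene Dusp9 (3.08-fold), Kctd4 (3.2-fold), the receptor gene Calcrl (at least 3.28-fold), the adaptor gene Blnk (2.46-fold), the cannabinoid receptor gene Cnr1 (2.59-fold), Fgfbp3 (2.55-fold) and the splicing regulator gene Mbnl3 (2.41-fold).

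Several of these genes were low in beta-catenin cells too. Apoc2 lay at 5.23, 5.13 and 5.02 there and was not called between the lines (adjusted p = 0.973). Inpp4b, Blnk, Mbnl3, Ctsh and Fgfbp3 were not called between the lines either (adjusted p from 0.283 to 0.939), which does not show that they were equal. Ccbe1 and Slco4a1 were lower still in beta-catenin cells, with ICAT cells 2.05-fold (adjusted p = 3.47e-05) and 1.78-fold (adjusted p = 0.00221) above them. Cnr1 was 5.01-fold higher in ICAT than in beta-catenin cells (adjusted p = 4.4e-05), and Dusp9 3.5-fold lower (adjusted p = 4.5e-05).

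Genes that build ribosomes were lower almost throughout. RNA polymerase I transcribes ribosomal RNA, and nucleolar proteins cut, modify and assemble it. Of 76 tested ribosome biogenesis and RNA polymerase I genes, 66 were called lower and 1 higher, with a median difference of -0.61. The groups did not overlap, with ICAT lower, for 70 of them, beside 23.3% of all genes. The mean difference over the list was -0.61, -0.73 and -0.47 on ICAT replicates 1, 2 and 3. The decrease was thus present on every ICAT array and deepest on replicate 2.

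Nop16, a nucleolar protein of large subunit assembly, lay at 10.48, 10.50 and 10.49 on the control arrays and 8.56, 8.51 and 9.03 on the ICAT arrays and fell 3.46-fold (log2 difference -1.79, SE 0.126, adjusted p = 1.63e-05). Taf1d, a subunit of the RNA polymerase I selectivity factor, went from 9.98, 9.99 and 10.10 to 8.43, 8.27 and 8.48 and fell 3.09-fold (adjusted p = 3.13e-06). Rrp12, a factor of small subunit export, went from 8.66, 8.58 and 8.58 to 7.20, 6.91 and 7.46 and fell 2.67-fold (adjusted p = 5.05e-05). Polr1b, the second largest subunit of RNA polymerase I itself, went from 9.44, 9.51 and 9.45 to 8.14, 8.08 and 8.11 and fell 2.56-fold (adjusted p = 3.03e-06). Against beta-catenin cells 57 of the 76 genes were lower in ICAT cells, beside 19.5% of all genes in that comparison. Rrp12 was 2.87-fold lower (adjusted p = 4.88e-05), Nop16 2.37-fold (adjusted p = 9.01e-05), Taf1d 2.39-fold (adjusted p = 1.78e-05) and Polr1b 1.97-fold (adjusted p = 1.82e-05). The MYC-type E-box CACGTG, searched on both strands (it reads the same on each), was in the windows of 13 of 68 of these genes with one (19.1%) and of 10.8% of all genes. It was also in those of 14 of 38 lysosome genes (36.8%), a list with more increases than decreases. Over all genes with a window, it was in 11.1% of those called higher and 13.8% of those called lower. The Myc transcript did not pass, as given above, and whether MYC acted on any of these genes was not tested.

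Genes for proteins of the cytosolic ribosome were mostly not called. Of 43 tested ribosomal protein genes, 4 were called lower and 1 higher, with a median of -0.02 (9 lower with a gene's probe sets averaged, and 2 without control replicate 3). Rpl12 fell 2.03-fold, from 10.09, 10.10 and 10.20 to 8.98, 9.03 and 9.33 (adjusted p = 9.05e-05), and Rps25 1.27-fold (adjusted p = 0.00449). Rps27 (-0.35, adjusted p = 0.0134) lost its call without control replicate 3 (adjusted p = 0.0706), and Rpl14 (-0.31, adjusted p = 0.017) without any 1 control array or ICAT replicate 2 (adjusted p from 0.0515 to 0.0712). In the mitochondrial ribosome 44 of 76 protein genes were called lower and 4 higher (median -0.29; 1 or 2 higher without any 1 control array), and Mrps34 fell 1.84-fold, Mrps10 1.82-fold and Mrps18b 1.77-fold. Their mean difference was -0.35, -0.41 and -0.15 on ICAT replicates 1, 2 and 3.

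Nucleotide synthesis genes were largely lower, with 20 of 30 called lower and 4 higher (median -0.41). The purine pathway enzymes Gart and Pfas fell 1.75-fold and 1.78-fold: Gart went from 10.37, 10.43 and 10.40 to 9.62, 9.51 and 9.65, and Pfas from 10.005, 10.02 and 10.06 to 9.12, 9.13 and 9.35. Shmt2, the mitochondrial serine hydroxymethyltransferase that feeds one-carbon units, fell 1.79-fold (adjusted p = 0.00205). Ctps2, a CTP synthase gene, went the other way, from 8.12, 8.07 and 8.08 to 9.63, 9.31 and 9.26 (2.48-fold higher). Aminoacyl-tRNA synthetases had 9 of 20 lower and 1 higher, with Vars 1.58-fold and Hars 1.55-fold lower; with control replicate 1, 2 or 3 left out, 6 were lower. Heat shock and cytosolic chaperone genes had 15 of 27 lower and 2 higher. Hspa4l fell 1.68-fold and Ahsa1, which activates HSP90, 1.46-fold. The small heat shock gene Hspb1 was one of the increases, from 9.28, 9.12 and 9.14 to 11.53, 11.14 and 11.21 (4.33-fold), although it was 3.46-fold lower than in beta-catenin cells, at 13.09, 13.09 and 13.07 (adjusted p = 3.18e-06). Hspa1a, at 4.53, 4.55 and 4.67 on the control and 5.73, 5.80 and 5.75 on the ICAT arrays, was the other increase.

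Proliferation genes were lower in ICAT cells. Of 65 tested G2/M and mitosis genes 51 were called lower and 0 higher (median -0.43), and of 50 G1/S and DNA replication genes 36 lower and 0 higher (median -0.33). Many mitotic genes carry a cell cycle homology region in the promoter, where the DREAM and MMB complexes bind. Its letters, TTTGAA on either strand, were in the windows of 39 of 56 G2/M genes with one (69.6%), of 10 of 40 G1/S genes (25.0%) and of 14.7% of all genes. They were also in those of 4 of 7 interferon-inducible GTPase genes (57.1%) and 5 of 13 fibroblast and stromal markers (38.5%), lists with more increases than decreases. Over all genes with a window, they were in 13.1% of those called higher and 16.7% of those called lower. The letters share TTTGA with the TCF letters above but end differently. Stretches of 60 bases up to the start are printed below for genes that fell. Only matches before the start were taken, so they do not show where the element lies in other genes. Matches are in capitals (TTCAAA is the same element on the other strand).
Cdca5 (chr19:6085037-6085096, plus strand): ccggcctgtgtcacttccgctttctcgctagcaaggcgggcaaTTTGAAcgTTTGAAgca
Espl1 (chr15:102296233-102296292, plus strand): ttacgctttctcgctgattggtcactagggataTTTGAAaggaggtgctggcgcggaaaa
Ube2c (chr2:164769869-164769928, plus strand): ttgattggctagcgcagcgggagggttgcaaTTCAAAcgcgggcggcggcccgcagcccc
Cep55 (chr19:38054981-38055040, plus strand): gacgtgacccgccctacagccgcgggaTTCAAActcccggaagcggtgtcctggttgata

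Cdca5, the cohesion factor sororin, holds 2 matches in this stretch and lay at 10.25, 10.22 and 10.20 on the control arrays and 9.35, 9.22 and 9.56 on the ICAT arrays; it fell 1.8-fold (log2 difference -0.85, SE 0.0917, adjusted p = 1.62e-04). Espl1, Ube2c and Cep55 were chosen for their sequences after values were seen. Espl1, the cohesin protease separase, went from 9.82, 9.76 and 9.77 to 8.92, 8.85 and 9.27 (adjusted p = 6.04e-04). Ube2c, a ubiquitin-conjugating enzyme of the anaphase-promoting complex, went from 12.26, 12.22 and 12.23 to 11.31, 11.47 and 11.73 (adjusted p = 6.33e-04), and the abscission factor Cep55 from 10.79, 10.67 and 10.74 to 9.84, 10.03 and 10.15 (adjusted p = 3.19e-04). In all 4 genes the ICAT arrays lay below the control arrays. Replicate 3 was the ICAT array nearest to control in each.

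Mybl2, the B-Myb subunit of the MMB complex, lay at 9.06, 9.06 and 9.11 on the control arrays and 7.45, 7.53 and 8.11 on the ICAT arrays and fell 2.61-fold (log2 difference -1.38, SE 0.151, adjusted p = 1.72e-04). It was 2.24-fold lower than in beta-catenin cells as well (adjusted p = 3.73e-04). The mitotic kinase gene Aurka went from 10.95, 10.84 and 10.92 to 9.88, 9.96 and 10.25 and fell 1.84-fold, and was 1.51-fold lower than in beta-catenin cells (adjusted p = 0.00163). Plk1, another mitotic kinase gene, went from 10.48, 10.49 and 10.50 to 9.50, 9.48 and 9.88 and fell 1.83-fold (adjusted p = 3.08e-04). Mki67, a common proliferation marker, fell 1.27-fold (adjusted p = 0.0311), a call lost when any of the 3 control arrays, ICAT 1 or ICAT 2 was left out (adjusted p between 0.063 and 0.0985). Over the list, the mean difference was -0.60, -0.50 and -0.28 on ICAT replicates 1, 2 and 3, the smallest on replicate 3.

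For DNA replication, the S phase cyclin gene Ccne2 lay at 9.79, 9.77 and 9.81 on the control arrays and 8.58, 8.80 and 8.96 on the ICAT arrays and fell 2.02-fold (log2 difference -1.01, SE 0.0968, adjusted p = 8.50e-05). Tk1, thymidine kinase, went from 10.87, 10.81 and 10.83 to 9.86, 9.93 and 10.21 (1.79-fold), and the replication helicase gene Mcm5 from 11.77, 11.79 and 11.74 to 10.995, 11.01 and 11.17 (1.63-fold). The loading factor gene Cdc6 fell 1.64-fold (adjusted p = 0.00128). Of 15 tested G1 cyclin, CDK, CDK inhibitor and pocket protein genes, 5 were called higher (33.3%) and 2 lower (13.3%). The decreases, of the cyclin gene Ccnd3 and the kinase gene Cdk2, were 1.28-fold and 1.4-fold, and both genes are named after their values were seen. Cdkn1c, the CDK inhibitor p57, rose 2.51-fold, from 7.09, 6.78 and 6.72 to 8.45, 7.76 and 8.37, Cdkn2b, the inhibitor p15, 1.59-fold, and the pocket protein genes Rb1 and Rbl2 1.76-fold and 1.46-fold. Cdkn1a, the inhibitor p21, lay at 9.15, 9.22 and 9.13 on the control arrays and 8.63, 9.41 and 9.25 on the ICAT arrays and did not pass (adjusted p = 0.79); its sign turned without ICAT replicate 1. Of 29 p53 target genes, 8 were higher (27.6%) and 3 lower (10.3%), beside 17.0% and 16.3% of all genes. Trp53inp1 rose 3.33-fold, the death receptor gene Fas 2.27-fold and Btg2 1.82-fold, and the nuclease gene Aen fell 2.26-fold. The log2 difference of Fas ranged from 0.84 to 1.39 with 1 array left out.

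**Figure D5:**
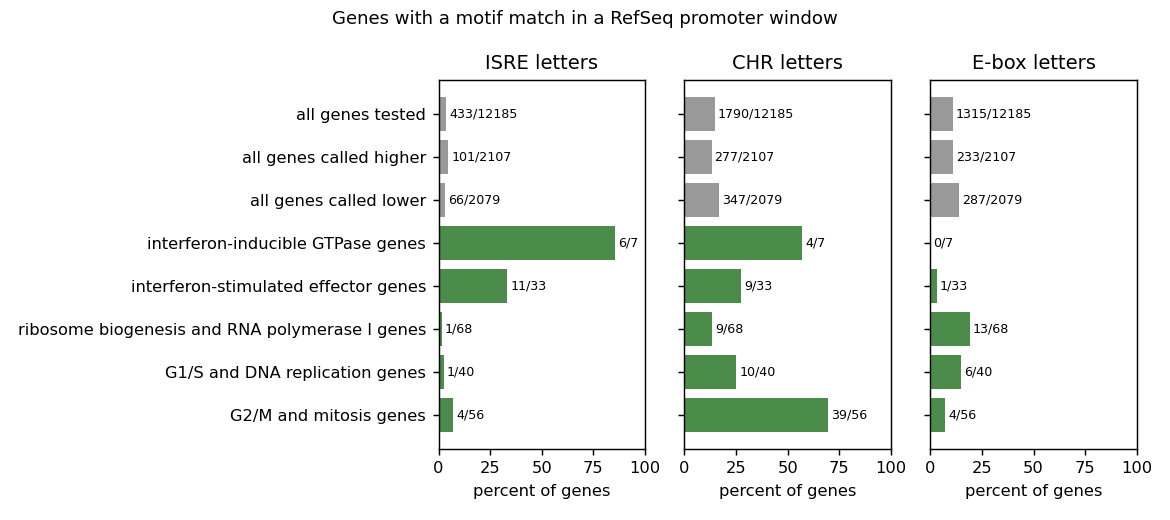
Bars give the percent of genes with a promoter window that hold the letters of an interferon-stimulated response element (left), a cell cycle homology region (middle) or a MYC-type E-box (right), in gene lists (green) and in all tested, higher or lower genes (grey), with counts beside the bars. The response element letters are in 6 of 7 GTPase genes and the cell cycle letters in 39 of 56 G2/M genes.

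Matrix genes formed another block of increases. Of 40 tested matricellular, elastic fibre and cross-linking genes 27 were called higher and 0 lower, with a median difference of 0.84. Mgp, which encodes the calcification inhibitor matrix Gla protein, lay at 6.61, 6.59 and 6.66 on the control arrays and 12.07, 11.03 and 10.91 on the ICAT arrays and rose 26.3-fold (log2 difference 4.72, SE 0.252, adjusted p = 4.67e-06). Loxl1, which cross-links elastin, was even at 8.33, 8.51 and 8.43 on the control arrays and 10.91, 10.71 and 10.77 on the ICAT arrays and rose 5.19-fold (adjusted p = 6.19e-07). Matn2, a filament-forming matrilin gene, went from 8.42, 8.55 and 8.36 to 11.03, 10.77 and 10.17 (4.64-fold), and Ogn, a small leucine-rich proteoglycan gene, from 6.32, 6.13 and 5.89 to 7.78, 8.000 and 8.52 (3.97-fold). The mean difference over the list was 1.14, 0.94 and 0.93 on ICAT replicates 1, 2 and 3. The increase was thus of similar size on each ICAT array. On the beta-catenin arrays the mean difference was 0.71, 0.71 and 0.63. Between the lines 19 of the 40 genes were called higher in ICAT cells and 8 lower, beside 15.2% and 19.5% of all genes.

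For collagen chains 13 of 32 tested members were called higher and 0 lower. Col1a2 went from 12.14, 12.19 and 12.20 to 13.48, 13.68 and 13.70 and rose 2.73-fold (log2 difference 1.45, SE 0.0796, adjusted p = 5.25e-06), and its partner chain Col1a1 from 6.26, 6.09 and 6.002 to 7.41, 8.10 and 8.43 (3.63-fold). The basement membrane chain gene Col4a5 rose 3.83-fold and the fibrillar chain gene Col11a1 at least 5.15-fold. Against beta-catenin cells 11 of the 32 collagen genes were higher and 4 lower in ICAT cells, beside 15.2% and 19.5% of all genes in that comparison. Metalloproteinases, ADAMs and inhibitors had 15 of 36 higher and 3 lower. The gelatinase gene Mmp2 went from 8.01, 8.06 and 8.24 to 10.22, 9.73 and 9.84 (3.56-fold), while the inhibitor genes Reck and Timp3 rose 3.49-fold and 2.82-fold.

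Fibroblast and stromal markers, some of which are in the matrix lists too, had 12 of 19 higher and 1 lower (median 0.45). Their mean difference from control was 0.91, 0.69 and 0.69 on the ICAT arrays and 0.52, 0.50 and 0.37 on the beta-catenin arrays. Between the lines 8 of the 19 were called higher in ICAT cells and 3 lower, beside 15.2% and 19.5% of all genes. Pdgfra, a growth factor receptor gene of fibroblasts, lay at 8.58, 8.51 and 8.66 on the control arrays and 11.27, 10.45 and 10.07 on the ICAT arrays and rose 4.04-fold (log2 difference 2.01, SE 0.243, adjusted p = 2.86e-04). Postn, the matricellular protein periostin, went from 5.51, 5.42 and 5.52 to 8.004, 7.07 and 7.23 (3.87-fold). Fap and Lum stayed under the filter in both groups, and Thy1 was near it at 5.05, 4.83 and 4.82 and 4.99, 5.05 and 4.91. The mean of the fibroblast markers fixed for the label check was 7.10 to 7.17 on the control and 7.94 to 8.17 on the ICAT arrays; their part in the matrix result was not tested. In bulk RNA a change in the share of cells and a change in RNA per cell cannot be told apart.

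Epithelial and mesenchymal markers each held genes that rose and genes that fell. For mesenchymal and EMT genes 10 of 20 tested members were called higher and 3 lower, with Tgfbi 3.56-fold and the fibronectin gene Fn1 2.46-fold higher and Cdh2 lower as given above. For epithelial, keratin and junction markers, 4 of 23 tested members were called higher (17.4%) and 2 lower (8.70%). The share called higher was close to the 17.0% of all genes, and 16.3% of all genes were called lower. The keratin genes Krt18 and Krt8, which pair in simple epithelia, rose 2.43-fold and 1.85-fold: Krt18 went from 7.27, 7.24 and 7.19 to 7.87, 8.92 and 8.75, lowest of the ICAT arrays on replicate 1. Krt19 rose 1.21-fold (adjusted p = 0.0351), a call that did not survive leaving out control 1, control 3, ICAT 2 or ICAT 3 (adjusted p between 0.0727 and 0.134). Cldn6, a tight junction gene, fell 2.54-fold (adjusted p = 0.00328) and Pkp2, of desmosomes, 1.59-fold. Sox9, a ductal progenitor factor gene, rose 1.45-fold, from 8.94, 9.04 and 9.04 to 9.46, 9.53 and 9.62.

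Glycolysis and hypoxia genes were higher, with 18 of 29 called higher and 2 lower (median 0.48). Aldoc, an aldolase gene, was even at 7.19, 7.18 and 6.95 on the control arrays and 9.51, 9.49 and 9.31 on the ICAT arrays and rose 5.04-fold (log2 difference 2.33, SE 0.0919, adjusted p = 1.03e-06). It was 5.65-fold higher than in beta-catenin cells (adjusted p = 9.99e-08). The enolase gene Eno2 went from 6.28, 6.48 and 6.41 to 7.73, 8.20 and 8.09 (3.06-fold), and Pfkp, a phosphofructokinase gene, from 6.11, 6.19 and 6.29 to 7.39, 7.54 and 7.53 (2.45-fold). Ndrg1, a stress gene that responds to hypoxia, rose 2.42-fold (adjusted p = 2.56e-04). Over the list, ICAT replicate 1 showed the smallest mean difference (0.43, 0.67 and 0.57 on replicates 1, 2 and 3).

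Lysosome genes had 24 of 43 called higher and 3 lower (median 0.27). The cathepsin gene Ctso went from 6.65, 6.73 and 6.47 to 8.36, 8.20 and 8.07 and rose 3.02-fold (log2 difference 1.60, SE 0.0981, adjusted p = 9.68e-06), the mannosidase gene Manba rose 2.07-fold and the legumain gene Lgmn 2.04-fold. Ctsh, given above, was an exception. Glutathione and NRF2 genes divided, with 11 of 36 higher (30.6%) and 10 lower (27.8%), beside 17.0% and 16.3% of all genes. The 10 became 5 without control replicate 2 and 6 without control replicate 3. Those higher were led by glutathione transferases: Mgst1 went from 7.37, 7.31 and 7.29 to 11.42, 9.98 and 9.98 (8.78-fold), Gstm5 from 9.18, 9.28 and 9.22 to 11.20, 11.02 and 11.11 (3.7-fold), Gstm2 rose 4.89-fold and Mgst2 2.51-fold. Genes of the Gstm family are close in sequence, and whether their probe sets share signal was not tested. Sterol and fatty acid synthesis genes had 14 of 29 lower and 1 higher (9 lower without control replicate 3), with Elovl6 1.58-fold and the fatty acid synthase gene Fasn 1.54-fold lower and Ebp 1.45-fold higher. The lipoprotein receptor gene Vldlr rose 6.54-fold, from 5.98, 5.88 and 6.28 to 8.56, 8.998 and 8.71 (adjusted p = 3.05e-06).

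For chaperones of the endoplasmic reticulum and amino acid stress genes, ICAT replicate 1 lay below its partners. Of 25 tested ER chaperone and unfolded protein genes 9 were called higher (36.0%, beside 17.0% of all genes) and 0 lower. Without ICAT replicate 1, 22 were called higher. The mean difference was 0.03, 0.52 and 0.60 on ICAT replicates 1, 2 and 3, and all 25 genes had their lowest ICAT value on replicate 1. Sel1l, of the ER degradation machinery, lay at 9.06, 9.18 and 9.16 on the control arrays and 9.60, 10.09 and 10.22 on the ICAT arrays and rose 1.79-fold (log2 difference 0.84, SE 0.142, adjusted p = 0.00171). Herpud1, of the same machinery, lay at 9.73, 9.54 and 9.63 on the control arrays and 9.89, 10.49 and 10.76 on the ICAT arrays and rose 1.68-fold (adjusted p = 0.0122), a call lost without ICAT replicate 2 (adjusted p = 0.0622). Of 31 amino acid synthesis and ATF4 response genes 8 were higher (25.8%) and 3 lower (9.68%), beside 17.0% and 16.3% of all genes. Their mean differences were -0.07, 0.40 and 0.58 on ICAT replicates 1, 2 and 3. Without ICAT replicate 1, 17 were higher, and without any other array 3 to 5. The 3 lower became 1 without control replicate 1 or 2 or ICAT replicate 2. Ddit3, the stress factor CHOP, lay at 8.28, 8.23 and 8.30 on the control arrays and 9.23, 9.68 and 9.79 on the ICAT arrays and rose 2.46-fold (adjusted p = 1.09e-04). Gpt2, an alanine transaminase gene, lay at 7.95, 8.004 and 7.85 on the control arrays and 8.19, 9.49 and 9.74 on the ICAT arrays and rose 2.31-fold (adjusted p = 0.0179), a call lost without ICAT replicate 2 (adjusted p = 0.0926) or 3 (adjusted p = 0.0737). Slc1a5, a glutamine transporter gene, fell 1.99-fold (adjusted p = 4.43e-04).

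Growth factor and contractile genes held more increases than decreases, and other signalling and cytoskeletal lists held both, beside 17.0% higher and 16.3% lower among all genes. For growth factor and IGF axis genes 15 of 40 tested members were called higher (37.5%) and 4 lower (10.0%): Igfbp7 rose 3.12-fold, the TAM receptor ligand gene Gas6 2.73-fold, from 6.42, 6.47 and 6.27 to 8.03, 7.69 and 7.79, and the receptor gene Fgfr1 2.34-fold. In the TGF-beta and BMP list, 11 of 39 tested members were called higher (7 without control replicate 1) and 6 lower. Fstl1 rose 3.85-fold and the receptor gene Tgfbr2 2.12-fold. Bmp2 fell 2.5-fold, from 10.84, 10.90 and 10.85 to 8.65, 10.16 and 9.79 (adjusted p = 0.00881). Its log2 difference ranged from -1.64 to -0.88 with 1 array left out. For MAPK feedback and immediate-early genes 9 of 36 tested members were called higher and 7 lower, with Egr1 3.03-fold and Spry1 1.89-fold higher and Dusp4 2.22-fold lower. Of contractile and SRF-dependent genes 9 of 35 were higher (25.7%) and 1 lower, led by the tropomyosin gene Tpm2, from 10.06, 10.04 and 10.09 to 11.42, 11.54 and 11.41 (2.63-fold). The median difference of this list was only -0.005, beside -0.01 for all genes. Its mean difference from control was 0.18, 0.07 and 0.14 on the ICAT arrays and 0.37, 0.36 and 0.36 on the beta-catenin arrays. Between the lines 17 members were called lower in ICAT cells and 2 higher, beside 19.5% and 15.2% of all genes. Tubulins had 3 of 13 higher and 4 lower (2 lower without control replicate 3), and Tubb2b, at 4.99, 4.97 and 4.92 on the control arrays and 8.83, 8.42 and 8.42 on the ICAT arrays, rose at least 11.8-fold (log2 difference 3.59, SE 0.11, adjusted p = 3.98e-07). Integrins and laminins had 8 of 27 higher and 3 lower (5 higher without any 1 control array). Itgb8, which activates latent TGF-beta, went from 6.82, 6.78 and 7.04 to 8.14, 8.18 and 8.20 (2.46-fold) and was at least 9.02-fold higher than in beta-catenin cells, where it was under the filter at 4.46, 4.59 and 4.56 (adjusted p = 1.83e-08).

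Of 29 acinar, ductal and endocrine markers of the pancreas, 4 were called higher (13.8%, beside 17.0% of all genes) and 0 lower, and 2 were called higher without control replicate 1, control replicate 3 or ICAT replicate 2. Besides Sox9 and Krt19 these were the elastase gene Cela1, from 8.18, 8.10 and 8.15 to 8.62, 8.45 and 8.55 (1.32-fold), and the Notch target gene Hes1 (1.16-fold, adjusted p = 0.0301), whose call was lost without any 1 control array or ICAT replicate 2 (adjusted p from 0.056 to 0.16). Of 13 endothelial markers Flt1 rose 1.4-fold (adjusted p = 9.70e-04) and Tie1 fell 1.24-fold (adjusted p = 0.0429), and the Tie1 call was lost without any 1 array other than control replicate 2 (adjusted p from 0.0571 to 0.167).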

How the data were processed

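RNA of 3 samples per group was hybridised to Affymetrix 3′ IVT arrays. The authors deposited log2 expression values made with RMA (affy package), per the submitters' processing notes, which give no versions. RMA compresses low and saturated signals and gives arrays 1 distribution, so a shift of all genes would not be seen. Arrays have no read depth, and their number limits the precision.

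Of 45037 probe sets 34945 had 1 gene symbol by the platform annotation, 932 several and 9160 none; symbols were updated by Entrez identifier except for 204. The brightest single-gene probe set over 9 arrays stood for a gene. Genes reaching log2 5 on 3 or more arrays were fitted with limma 3.58.1 in R 4.3.3 on the 6 ICAT and control arrays (4 residual and 5.22 prior degrees of freedom). A fit with the beta-catenin arrays added would understate the ICAT spread more. The fit used still takes 1 variance per gene for both groups, although the median SD was 0.121 in ICAT and 0.0568 in control cells. ICAT against beta-catenin was fitted likewise. A simulation with 15235 genes changed only a small part of them. It recovered 8% of genes changed 1.2-fold, 80% of those changed 1.5-fold and 90% of those changed 2-fold. Of the genes called there, 11.5% were false (18 genes). That share need not hold in the real data, where many more genes were called. An exact permutation test of 3 against 3 arrays cannot go under 0.1 and was not used.

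Genes named were, among called genes whose groups did not overlap, the 20 largest increases and decreases, the 10 largest of each with an SD of at most 0.15 in both groups, the 10 with the largest ICAT SD, up to 4 called members of each gene list and a few fixed genes. Not all are described. The members and lists were chosen with earlier results of these data known, so no list is independent support. Alternatives were no filter, a filter of 7, all single-gene probe sets averaged, array centring, array weights, a trended prior, all 9 arrays, a replicate block and leaving out each array.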

Additional observations from a re-analysis of the deposited data

How the results depend on the processing

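The limits are few arrays, 1 cell line, and a signal scale compressed at both ends. Directions held for the genes chosen by rule under the alternatives run, with the exceptions below. Genes added for their sequences or after their values were seen were not in this check. Axin2 was -0.041 with array centring and ranged from -0.029 to 0.10 when 1 array was left out. Rasl11a ranged from -0.015 to 1.22, Ccnd1 from -0.083 to 0.0035 and Cdkn1a from -0.23 to 0.16. Calls changed more often than directions. Of the genes chosen by rule, 7 lost their call with the trended prior, 4 with array centring and 2 with averaged probe sets. With array weights 1 lost its call and 3 gained one, and with the replicate block 1 lost its call and 4 gained one. With 1 array left out, genes called lower ranged from 1647 to 3185 and those at least 2-fold lower from 51 to 118. ER chaperone genes called higher were 5 with probe sets averaged, 14 with array weights and 6 to 22 with 1 array left out. The fit with the replicate number as a block called 2641 genes higher and 2556 lower, and 15 ER chaperone genes higher. Deviations of same-numbered control and ICAT arrays correlated at 0.0378, 0.0553 and 0.175, and control 1 correlated best with ICAT 2, so the numbers were not taken to pair samples. The cause of these shifts was not tested. Some counts of 3 or more members within gene lists also moved by over 1.5 times; those that moved when 1 array was left out are given beside the counts, as is that of ribosomal protein genes with averaged probe sets, and the rest follow. With the filter at 7, which tests fewer genes, 12 chemokine and cytokine genes were called higher, 2 Wnt feedback and target genes and 8 beta-catenin partner genes. Array centring gave 2 Wnt feedback and target genes, 2 pancreatic markers and 5 amino acid synthesis genes higher and 11 MAPK feedback genes lower. Averaged probe sets gave 5 amino acid synthesis genes higher and 5 Wnt feedback and target genes lower. Beta-catenin partner genes called higher were 9 with all 9 arrays and 8 with the trended prior.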
